A study of Homo sapiens with 4 samples.

Results

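Kahweol, a diterpene of coffee oil, was compared with no treatment in MDA-MB-231 cells in which CTGF had been knocked down. MDA-MB-231 is a human triple-negative breast cancer cell line with mesenchymal features. The comparison rests on 2 of the 4 RNA-Seq libraries of the study, 1 from cells transfected with CTGF siRNA (siCTGF) and left untreated and 1 from siCTGF cells given 50 µM kahweol for 48 h. The remaining libraries came from cells with a control siRNA (siControl), untreated or given kahweol on the same terms, and are set beside the siCTGF pair where the 2 responses are compared. Cells were transfected first and then kept in serum-free medium. The comparison asks which genes kahweol moves when CTGF is already low. A single CTGF siRNA was used, so effects of its sequence on other transcripts cannot be told apart from those of CTGF. Kahweol was dissolved in DMSO according to the methods of the study, which mention no solvent for the untreated cells, so kahweol and its solvent cannot be told apart either.

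Electrophilic compounds modify KEAP1 and release NRF2, a transcription factor that turns on genes for glutathione, thioredoxin and heme metabolism. Damaged proteins start other programs: HSF1 drives the cytosolic heat shock proteins, the unfolded protein response drives chaperones of the endoplasmic reticulum (ER), and the kinases of the integrated stress response raise ATF4 and CHOP. CTGF itself (gene symbol CCN2) is a secreted matricellular protein of the CCN family and a classic target of YAP/TAZ, the coactivators that report cell shape and adhesion. The results below follow these programs, then lipid synthesis, the cell cycle, adhesion and the noncoding RNAs.

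Each condition had 1 library, so no difference between these libraries has a replicate check. The total count was 51830429 in siCTGF and 47276653 in siCTGF+kahweol, and the siControl libraries held 59129784 and 44781516. Levels are given as CPM, the counts scaled to a common library size with TMM, and fold changes are differences of log2 CPM with a prior count of 2. Kept were the 16599 genes whose 4 counts averaged 10 or more. A gene is said to have risen where its fold was over 1.3 and to have fallen where its fold was under 0.7, which are sizes and no test. The ranges given after log2 fold changes are 95% intervals (Clopper-Pearson), in which a pair of reads counts as 1 fragment. Nothing beyond counting error is in them. Mitochondrial rRNA took 3.11% of the counts in siCTGF and 6.01% in siCTGF+kahweol, beside 3.94% and 4.33% in the siControl pair. The mesenchymal markers VIM, CD44, AXL and SPARC summed to 3579 to 4354 CPM in the 4 libraries, while 6 of 8 leukocyte markers, 6 of 8 fibroblast markers, 4 of 8 luminal breast markers and 2 of 6 endothelial markers stayed under 1 CPM in all of them. The leukocyte markers summed to 47.0 CPM in siCTGF and 62.4 CPM in siCTGF+kahweol, of which CD68, a lysosomal protein that many cells express, gave 45.3 and 60.6 CPM. The fibroblast markers summed to 13.1 and 15.0 CPM, the endothelial markers to 108 and 88.0 CPM and the luminal markers to 172 and 201 CPM, and their part in the results was not tested.

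The mRNA of CTGF comes from CCN2 (gene ID 1490), which GRCh37 places on chromosome 6, 132269316 to 132272512. It measured 159 CPM in siControl cells and 63.6 CPM in siCTGF cells. In the untreated siCTGF library it was therefore lowered and not absent. With kahweol it was at 186 CPM in siControl cells and at 31.8 CPM in siCTGF cells. The interval of its log2 fold change with kahweol ran from -1.13 to -0.87 in siCTGF cells, and the change was 0.23 (0.17 to 0.29) in siControl cells. The fall was thus seen in the knocked-down cells, and the siControl value lay between the thresholds. That difference has no replicate and was not tested. The extent of the knockdown in each siCTGF culture and a response of CCN2 to kahweol cannot be told apart.

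In siCTGF cells 4713 genes rose with kahweol (28.4% of the genes kept) and 4017 fell (24.2%). In siControl cells 28.1% rose and 26.3% fell. The counts of every list below stand beside the shares of the same pair. At 2-fold or more, 1551 were higher (9.34%) and 1792 lower (10.8%). The median log2 fold change of all genes kept was -0.0034. A fit over all 4 libraries with the siRNA as covariate (the additive fit, the quasi-likelihood F-test of edgeR, with p adjusted by Benjamini-Hochberg) called 3805 genes higher (22.9%) and 3922 lower (23.6%) with kahweol at an adjusted p under 0.05. It tests the average over both siRNAs with 1 residual degree of freedom, so it is no test within siCTGF cells.

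Among protein-coding genes with a mean count of 100 or more that are not read-through transcripts, the largest rises were those of HMOX1, the heme oxygenase that degrades heme, DLL4, a Notch ligand, FBXW10, an F-box protein, PELI2, a ubiquitin ligase of innate signaling, and SNAI1, a repressor of epithelial genes. HMOX1 went from 44.3 to 1030 CPM in siCTGF cells, a fold of 23.2, and from 34.3 to 582 CPM in siControl cells. DLL4 went from 0.333 to 5.99 CPM, a log2 fold change of 4.02 with a wide interval (3.20 to 5.33) since only 18 reads were counted in siCTGF. SNAI1 went from 1.68 to 19.6 CPM in siCTGF cells and from 2.82 to 19.8 CPM in siControl cells. Both kahweol libraries were therefore far above both untreated ones for HMOX1 and SNAI1.

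Among the genes with the largest falls at the same mean count, KRT23, an epithelial keratin, fell from 14.0 to 0.248 CPM, a log2 fold change of -5.62 (-7.36 to -4.64). GPR15, a chemoattractant receptor, TNFSF15, a cytokine of the TNF family, ZBED2, a zinc finger repressor, and CXCL1, a neutrophil chemokine, had log2 fold changes of -4.97, -4.18, -3.99 and -3.78. CXCL1 was the most abundant of them at 39.9 CPM in siCTGF and 2.86 CPM in siCTGF+kahweol. WNT16, a Wnt ligand, and FGF1, a fibroblast growth factor, were at -3.62 and -3.46. In siControl cells the same 7 genes had log2 fold changes between -4.42 and -2.83.

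**Figure D1:**
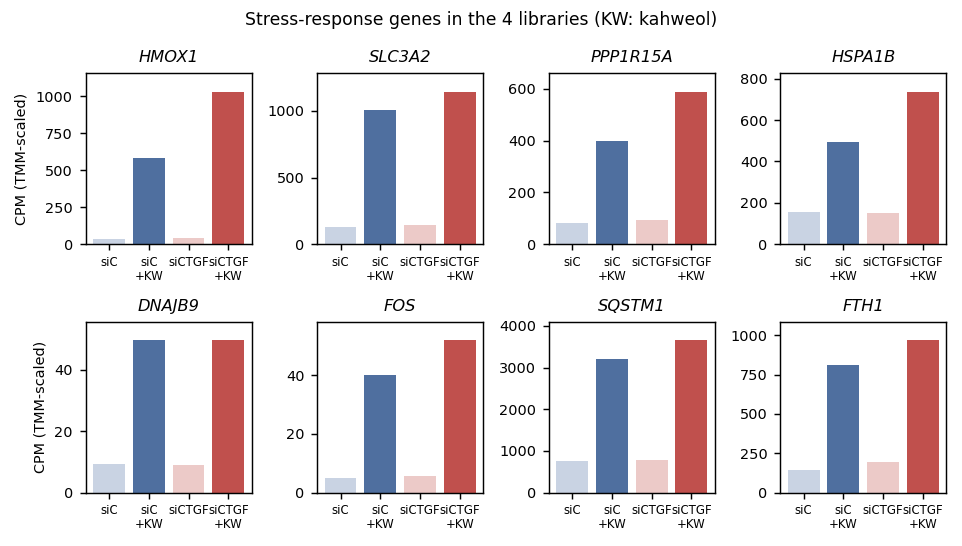
CPM (TMM-scaled, linear axes from 0) of 8 stress-response genes in the 4 libraries, 1 bar per library (siC: siControl, KW: kahweol). In each panel both kahweol libraries stand above both untreated libraries, with HMOX1 at 1030 CPM in siCTGF+kahweol and 44.3 CPM in siCTGF.

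NRF2 targets rose as a group. Of 42 measured members, 31 rose and 3 fell in siCTGF cells, with a median log2 fold change of 0.80, and the additive fit called 31 higher and 3 lower. Among enzymes of heme, quinones and glutathione, 11 of 13 rose and none fell. GCLC, the catalytic subunit of glutamate-cysteine ligase, which makes the glutathione precursor, went from 56.2 to 190 CPM, and its partner subunit GCLM from 130 to 415 CPM. AKR1B10, an aldo-keto reductase, rose from 0.407 to 4.73 CPM. OSGIN1, an oxidative stress growth inhibitor, had a log2 fold change of 2.49 (2.36 to 2.62). The 3 members that fell were all efflux pumps of the ABCC family, with log2 fold changes of -0.54 for ABCC3, -0.66 for ABCC4 and -0.73 for ABCC2.

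Iron storage moved with heme oxygenase. FTH1 and FTL, the heavy and light chains of ferritin, went from 194 to 972 CPM and from 1238 to 4730 CPM in siCTGF cells, and both have many processed copies in the genome with which reads can be shared. BACH1, the heme-sensing repressor of HMOX1, had a log2 fold change of 0.87, and ALAS1, the first enzyme of heme synthesis, of 1.03. Over the whole list of iron and heme genes 7 of 24 rose (29.2%), near the 28.4% of all genes kept. In that list 4 fell (16.7%), and its median was -0.13. Metallothioneins and zinc genes included 6 of 9 that rose and 2 that fell. SLC30A1, a zinc exporter, was at 2.05, MT1E, a zinc-binding metallothionein, at 1.29 and SLC39A10, a zinc importer, at -1.78.

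Some promoters are shown, chosen by a rule on their values, because these programs are read through short DNA elements. RefSeq windows of 300 bases around gene starts (GRCh38.p14, 250 bases before the start and 50 after) matched 12286 of the genes kept. The antioxidant response element, searched as TGAC, any 3 bases and GC on both strands, stood in 9 of 33 windows of NRF2 targets (27.3%), in 15.0% of windows of genes kept and in 13.6% of all 27305 windows. It was held by 5 of 25 members that rose and by 4 of 8 that did not. HMOX1 and AKR1B10 had no window to search. The 2 genes with the highest lower bound of the fold among those 5 were GCLM (chr1:93909381-93909680, minus strand) and MAFF (chr22:38201744-38202043, plus strand), a small MAF partner of NRF2 whose log2 fold change was 0.95. Capitals mark the element, which overlaps no AP-1 site (TGANTCA) in these windows and starts at -34 and -122 from the gene start.
GCLM: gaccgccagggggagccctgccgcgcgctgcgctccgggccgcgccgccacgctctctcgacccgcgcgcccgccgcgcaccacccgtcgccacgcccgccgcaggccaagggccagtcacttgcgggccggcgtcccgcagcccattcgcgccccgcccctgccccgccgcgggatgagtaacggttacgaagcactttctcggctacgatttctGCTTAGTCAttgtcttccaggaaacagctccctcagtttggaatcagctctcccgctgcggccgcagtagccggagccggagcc
MAFF: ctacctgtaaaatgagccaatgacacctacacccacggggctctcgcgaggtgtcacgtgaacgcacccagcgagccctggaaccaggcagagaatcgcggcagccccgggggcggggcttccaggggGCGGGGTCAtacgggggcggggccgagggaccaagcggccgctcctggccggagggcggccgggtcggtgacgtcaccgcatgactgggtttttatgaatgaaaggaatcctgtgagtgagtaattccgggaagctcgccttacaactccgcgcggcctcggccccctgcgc

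Targets of ATF4 and CHOP differed by role in the share that rose. Of the transcription factors and feedback regulators 9 of 15 rose (60%) and 2 fell. Of the genes for transport and secreted factors 5 of 10 rose (50%) and none fell. Of the genes for amino acid synthesis 2 of 10 rose (20%) and 2 fell (20%), near the 28.4% and 24.2% of all genes kept. In siControl cells 3 of these 10 rose and 2 fell. SLC3A2, the heavy chain of the cystine and neutral amino acid exchangers, went from 145 to 1145 CPM in siCTGF cells and from 132 to 1003 CPM in siControl cells. PPP1R15A (GADD34), which restores translation by recruiting a phosphatase to eIF2α, went from 92.1 to 589 CPM. DDIT3, which encodes CHOP, went from 26.0 to 90.6 CPM, and ATF3, a stress-induced repressor, from 8.71 to 30.7 CPM. The additive fit called these 4 genes higher, with adjusted p between 3.26e-06 for SLC3A2 and 6.2e-05 for ATF3. The proline enzyme PYCR1, the serine enzyme PSPH and the glutathione-degrading CHAC1 fell, with log2 fold changes of -0.76, -0.70 and -0.82. CHAC1 was at 0.13 in siControl cells, and the asparagine enzyme ASNS was among the members that rose in siCTGF cells. Over the list, 16 of 35 rose and 4 fell, with a median of 0.35.

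The composite ATF4 element, searched as TGATG, any base and AA on both strands, stood in 5 of 28 windows of this list (17.9%), in 1.68% of windows of genes kept and in 3.67% of all windows. Within the list 3 of 13 members that rose and 2 of 15 that did not held the element. The element was also in 6 of 16 windows of the cytosolic aminoacyl-tRNA synthetases (37.5%), of which 2 of 20 rose and 2 fell (median 0.05). AARS1 and WARS1, which charge alanine and tryptophan tRNAs, were the synthetases that rose, at 0.76 and 0.64. SLC3A2 (chr11:62881449-62881748, plus strand) and ATF3 (chr1:212565157-212565456, plus strand) are shown as members that rose and IARS1 (chr9:92293648-92293947, minus strand), the isoleucine enzyme, as the most abundant synthetase with the element. IARS1 was at 772 CPM in siCTGF and 625 CPM in siCTGF+kahweol, a log2 fold change of -0.30. The element (capitals) starts at 37 from the gene start in SLC3A2, at -191 in ATF3 and at -13 in IARS1.
SLC3A2: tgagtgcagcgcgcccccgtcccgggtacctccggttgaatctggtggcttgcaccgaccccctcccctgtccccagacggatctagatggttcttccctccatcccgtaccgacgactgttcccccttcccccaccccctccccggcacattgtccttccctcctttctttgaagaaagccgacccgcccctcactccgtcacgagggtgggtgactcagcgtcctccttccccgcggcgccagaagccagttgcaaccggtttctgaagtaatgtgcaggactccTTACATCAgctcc
ATF3: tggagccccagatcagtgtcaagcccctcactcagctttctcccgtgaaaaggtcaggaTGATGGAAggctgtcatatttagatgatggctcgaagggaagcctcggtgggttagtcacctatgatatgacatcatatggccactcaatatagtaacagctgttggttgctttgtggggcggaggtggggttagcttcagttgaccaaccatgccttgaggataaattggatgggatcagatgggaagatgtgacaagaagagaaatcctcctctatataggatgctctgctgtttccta
IARS1: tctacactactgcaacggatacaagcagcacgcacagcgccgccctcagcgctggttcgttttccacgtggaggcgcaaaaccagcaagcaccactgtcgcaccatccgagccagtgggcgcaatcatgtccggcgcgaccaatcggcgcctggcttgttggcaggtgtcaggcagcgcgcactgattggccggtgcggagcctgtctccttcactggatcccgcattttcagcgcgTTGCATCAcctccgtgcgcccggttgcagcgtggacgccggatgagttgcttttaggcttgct

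In the ER, 22 of 35 chaperones and components of the unfolded protein response rose and none fell (median 0.55). DNAJB9, a co-chaperone of BiP and a target of XBP1, went from 9.02 to 49.7 CPM. The sensors ERN1 (IRE1) and EIF2AK3 (PERK) rose by 1.57 and 1.43 on the log2 scale, and SELENOK, a selenoprotein of the ER membrane, by 1.33. ATF6, also a sensor, was the lowest of the list at -0.23, and of the sensors and factors 3 of 6 rose. In the degradation branch 6 of 10 members rose. The additive fit called 26 of the 35 genes higher and none lower.

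Cytosolic chaperones rose with them, 20 of 29 members against none that fell (median 0.69). HSPB8, a small heat shock protein, went from 2.59 to 22.1 CPM, and its partner BAG3, which routes clients to autophagy, from 50.1 to 147 CPM. The inducible HSP70 genes HSPA1A and HSPA1B went from 88.8 to 443 CPM and from 150 to 737 CPM. Their coding sequences are nearly identical, so the split of reads between them is uncertain. In siControl cells HSPA1A and HSPA1B reached 295 and 495 CPM. DNAJB4, an HSP40 co-chaperone, had a log2 fold change of 2.73 (2.57 to 2.90).

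A heat shock element, searched as GAA, TTC and GAA with any 2 bases between them on both strands, stood in 5 of 27 windows of this list (18.5%), in 0.334% of windows of genes kept and in 0.487% of all windows. Within the list 4 of 19 members that rose and 1 of 8 that did not held the element. DNAJA1 (chr9:33025023-33025322, plus strand), an HSP40 that went from 311 to 737 CPM, and HSPA8 (chr11:123062087-123062386, minus strand), the constitutive HSP70 that went from 3560 to 7949 CPM, are shown as the 2 members with the highest lower bound that hold it. DNAJA1 holds 1 match, at 3 from the gene start, and HSPA8 holds 2, at -230 and -55. Capitals mark the matches.
DNAJA1: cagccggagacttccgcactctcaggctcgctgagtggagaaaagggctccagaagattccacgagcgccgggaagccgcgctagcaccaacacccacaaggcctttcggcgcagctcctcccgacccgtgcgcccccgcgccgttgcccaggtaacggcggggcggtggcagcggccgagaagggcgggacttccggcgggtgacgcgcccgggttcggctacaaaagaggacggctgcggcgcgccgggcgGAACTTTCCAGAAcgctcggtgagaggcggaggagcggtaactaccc
HSPA8: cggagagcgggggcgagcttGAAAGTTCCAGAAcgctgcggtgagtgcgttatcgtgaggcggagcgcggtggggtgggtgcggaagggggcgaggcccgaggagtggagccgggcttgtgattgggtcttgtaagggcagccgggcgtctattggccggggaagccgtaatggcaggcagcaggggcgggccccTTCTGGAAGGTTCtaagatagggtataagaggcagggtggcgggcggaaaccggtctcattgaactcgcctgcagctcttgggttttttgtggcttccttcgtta

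Genes of protein disposal rose in smaller steps. Of 32 proteasome subunits 14 rose and none fell, with a median of 0.36 and PSMC6, an ATPase of the cap, highest at 1.04. Of 42 autophagy and lysosome genes 21 rose and none fell. SQSTM1 (p62), which carries ubiquitinated cargo to the autophagosome and is also an NRF2 target, went from 789 to 3664 CPM. GABARAPL1, a conjugated coat protein of the autophagosome, went from 33.9 to 160 CPM, and GLA, the lysosomal alpha-galactosidase, from 51.1 to 159 CPM. MAP1LC3B, the LC3 protein whose reads can be shared with a near-identical copy, had a log2 fold change of 1.26.

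Immediate early genes gave the highest list median of the protein-coding lists, 0.95, with 20 of 25 members that rose and none that fell. FOS, a subunit of AP-1, went from 5.56 to 52.0 CPM in siCTGF cells and from 4.99 to 40.0 CPM in siControl cells. FOSB, its paralog, had a log2 fold change of 2.62, and KLF4, a zinc finger factor, of 1.42. The median of the list in siControl cells was 0.56, with 17 members that rose and 2 that fell. JUN and JUNB, the partners of FOS and named after their values were seen, went from 96.9 to 138 CPM and from 38.6 to 88.5 CPM in siCTGF cells. Their siControl log2 fold changes were -0.12 and 0.42.

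Genes known as p53 targets included 16 of 27 that rose and 2 that fell (median 0.45). MDA-MB-231 cells carry a mutant p53. SESN2, SERTAD1, GADD45B and GADD45A, which respond to several kinds of stress, rose by 1.59, 1.85, 1.57 and 1.32 on the log2 scale. CDKN1A (p21), an inhibitor of cyclin-dependent kinases, went from 134 to 324 CPM. DDB2, which recognizes UV damage, and BAX, a pro-death BCL2 protein, fell, at -1.39 and -0.54. In the BCL2 family 6 of 16 rose and 6 fell. PMAIP1 (NOXA) and BCL2L11 (BIM), both pro-death, had log2 fold changes of 1.14 and 1.09, and the pro-survival MCL1 of 0.69. BCL2L1 (BCL-XL), also pro-survival, was at -0.80, and BIK, pro-death, at -1.50, so that the 2 classes did not separate by direction.

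**Figure D2:**
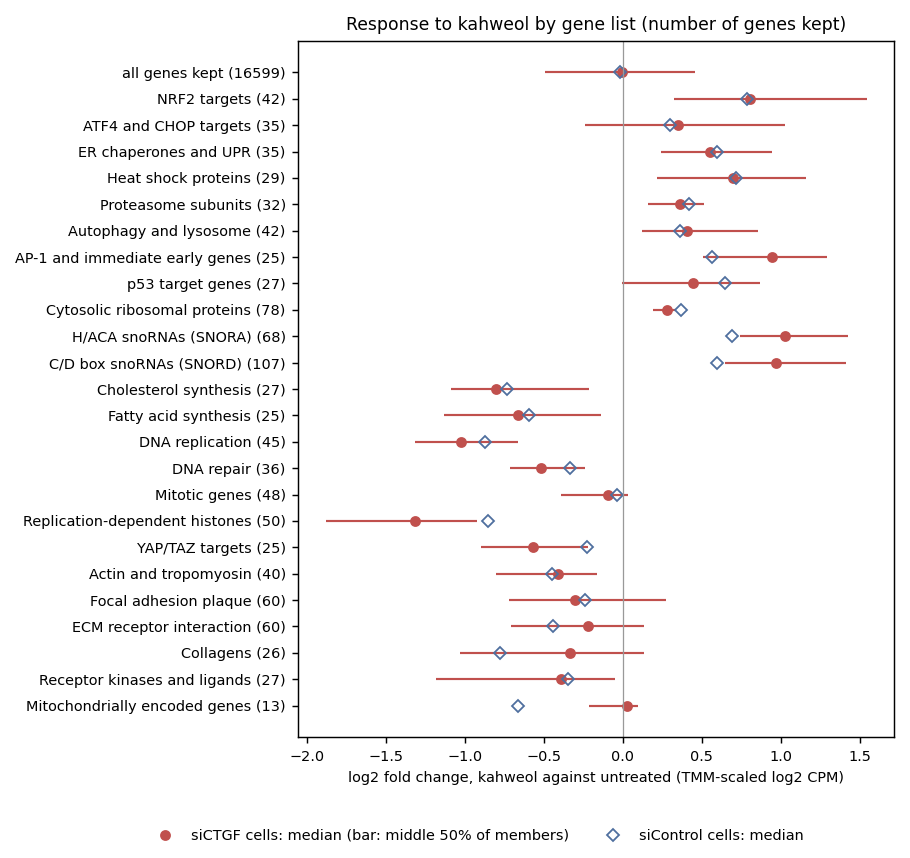
Median log2 fold change, kahweol against untreated, of 24 gene lists and of all genes kept, in siCTGF cells (filled circles, bar from the lower to the upper quartile of the members) and in siControl cells (open diamonds). NRF2 targets have medians of 0.80 and 0.79, DNA replication genes of -1.02 and -0.87, YAP/TAZ targets of -0.57 and -0.22 and collagens of -0.33 and -0.78.

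Lipid synthesis fell. Of 20 enzymes of cholesterol synthesis 14 fell and none rose (median -0.95). FDPS, which makes farnesyl diphosphate, went from 318 to 117 CPM in siCTGF cells and from 337 to 118 CPM in siControl cells. INSIG1, the ER anchor of the SREBP pathway, had a log2 fold change of -1.20. MYLIP (IDOL), a ubiquitin ligase and LXR target, rose from 11.2 to 55.8 CPM.

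Of 25 genes of fatty acid synthesis 14 fell and 2 rose (median -0.66). FASN, fatty acid synthase, went from 506 to 194 CPM in siCTGF cells and from 489 to 188 CPM in siControl cells. SCD, the stearoyl-CoA desaturase, went from 808 to 295 CPM, and the desaturases FADS1 and FADS2 had log2 fold changes of -1.23 and -1.13. PLIN2, the coat protein of lipid droplets, and GPAM, which starts triglyceride synthesis, were the members that rose, at 1.17 and 0.51. Among LXR and sterol efflux genes 3 of 11 rose and 3 fell, and ABCA1, the cholesterol efflux pump, was at -1.11.

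DNA replication genes fell in 36 of 45 cases and rose in 2, with a median of -1.02 in siCTGF cells and -0.87 in siControl cells. TYMS, thymidylate synthase, went from 46.6 to 11.96 CPM in siCTGF cells and from 29.6 to 16.1 CPM in siControl cells. MCM6, a subunit of the replicative helicase, went from 97.8 to 25.8 CPM, and GINS2, a subunit of its GINS cofactor, from 39.5 to 10.4 CPM. DUT, which removes dUTP, and POLA2, a subunit of the priming polymerase, had log2 fold changes of -1.72 and -1.80. DBF4, the activator of the CDC7 kinase, and GINS3 were the members that rose, at 0.58 and 0.47. Fewer cells in S phase and less RNA of these genes per cell cannot be told apart in bulk RNA.

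The 48 mitotic genes stayed near 0 by comparison, with a median of -0.09, 1 that rose and 8 that fell. They leaned down, with 34 of the 48 below 0 in siCTGF cells, and the additive fit called 14 lower and 3 higher. CKS2, a subunit of cyclin-dependent kinase complexes, rose at 0.91, and CDK1, the mitotic kinase, was the lowest at -0.98. TOP2A, the topoisomerase of dividing cells, went from 735 to 423 CPM. The cell-cycle homology region, searched as TTTGAA on both strands, stood in 30 of 42 windows of mitotic genes (71.4%) and in 10.1% of windows of genes kept. Mitotic genes that fell and those that did not were not compared for this region. E2F1, the activator of the G1/S genes, went from 87.7 to 19.3 CPM and E2F2 had a log2 fold change of -1.69. The inhibitors CDKN1C and CDKN1B and cyclin D2 (CCND2) rose by 1.66, 0.65 and 1.62 on the log2 scale, while CCND1 (cyclin D1) fell from 370 to 208 CPM. Of 36 DNA repair genes 19 fell and 2 rose (median -0.52), led by FANCL, a ubiquitin ligase of the Fanconi pathway, at -1.71 and XRCC2, a protein of homologous recombination, at -1.53.

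Replication-dependent histones, a class taken by symbol after the data were seen, fell in 47 of 50 genes with a median of -1.31. In siControl cells 38 of the 50 fell, with a median of -0.85. H2AC12, an H2A gene, went from 172 to 34.0 CPM in siCTGF cells and from 161 to 62.5 CPM in siControl cells. H3C12, an H3 gene, went from 41.1 to 5.32 CPM and from 33.7 to 7.78 CPM. Histone genes of a cluster are nearly identical, so the split of reads among them is uncertain. Most of these mRNAs have no poly(A) tail and are kept in libraries from rRNA-depleted RNA.

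**Figure D3:**
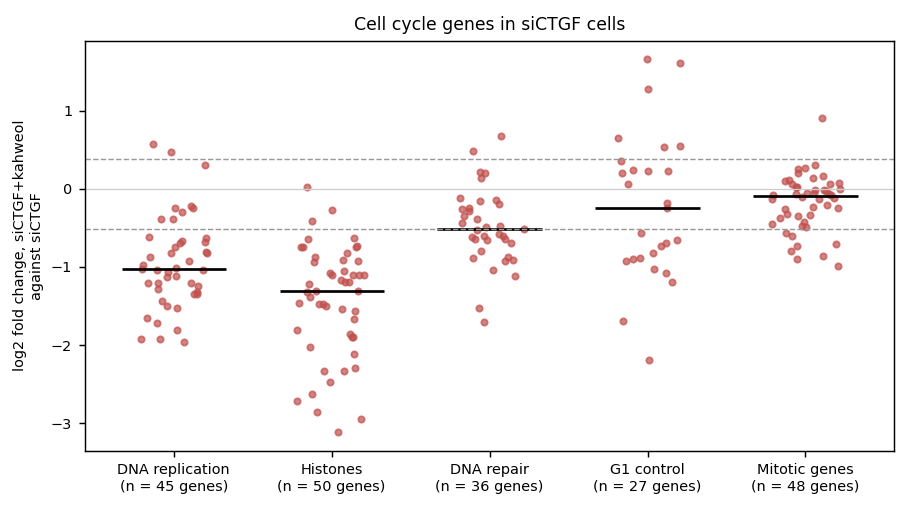
Log2 fold change, siCTGF+kahweol against siCTGF, of each gene of 4 cell cycle lists and of the replication-dependent histones (1 point per gene, bar: median, dashed lines: log2 of 1.3 and of 0.7). DNA replication genes (median -1.02) and histones (median -1.31) lie mostly under the lower line and mitotic genes (median -0.09) mostly between the lines.

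Within the CCN family, the matricellular proteins to which CTGF belongs, CCN1 (CYR61) moved as CCN2 did. CCN1 was at 119 CPM in siCTGF and 58.5 CPM in siCTGF+kahweol, and at 70.8 and 71.2 CPM in the siControl pair. Its log2 fold change was -1.02 (-1.12 to -0.93) in siCTGF cells and 0.01 (-0.09 to 0.10) in siControl cells. CCN1 was thus higher in siCTGF than in siControl without kahweol, and its level with kahweol was nearer to the siControl pair. CCN3 (NOV) rose in both pairs, at 0.96 and 0.76. CCN5 had 31 reads in siCTGF and 0 in siCTGF+kahweol, at least 8.48-fold lower against a floor of 3 counts in that library, and CCN4 was at 0.665 and 0.0901 CPM. The additive fit gave CCN2 an adjusted p of 0.252 and CCN1 of 0.085, both over the threshold.

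Targets of YAP/TAZ fell in 13 of 25 cases and rose in 2 (median -0.57). The median in siControl cells was -0.22, with 10 that fell and 2 that rose. ANKRD1, a muscle ankyrin repeat protein and a standard YAP/TAZ readout, went from 303 to 67.0 CPM in siCTGF cells and from 453 to 181 CPM in siControl cells. AJUBA, a LIM protein that binds LATS kinases, TGFB2, a TGF-beta ligand, and RBMS3, an RNA-binding protein, fell too. AJUBA went from 124 to 61.9 CPM, and the log2 fold changes of TGFB2 and RBMS3 were -1.26 and -2.47. LATS2, the kinase that inhibits YAP, and GADD45A rose, at 1.07 and 1.32. A TEAD site, searched as CATTCC on both strands, stood in 7 of 18 windows of this list (38.9%) and in 11.1% of windows of genes kept. Whether members that fell held the site more often than the others was not tested.

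**Figure D4:**
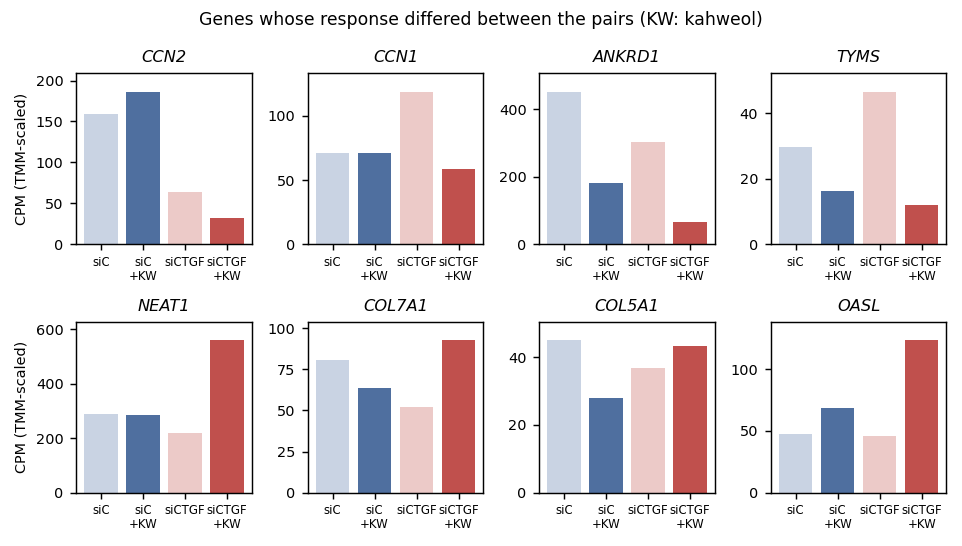
CPM (TMM-scaled, linear axes from 0) of 8 genes whose response to kahweol differed between the siCTGF and siControl pairs, 1 bar per library (siC: siControl, KW: kahweol). CCN2 and CCN1 are lower in siCTGF+kahweol than in siCTGF and not in the siControl pair, and NEAT1 is at 561 CPM in siCTGF+kahweol beside 220 to 289 CPM in the other libraries.

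The cytoskeleton and adhesion lists leaned down. Of 40 actin and tropomyosin genes 19 fell and 4 rose (median -0.41). The cytoplasmic actins ACTB and ACTG1 went from 2044 to 1156 CPM and from 2584 to 1407 CPM, and the tropomyosin TPM1 from 122 to 58.3 CPM. MYLK, the myosin light chain kinase, went from 84.7 to 21.0 CPM. Of 60 focal adhesion genes 21 fell (35.0%) and 8 rose, beside 24.2% and 28.4% of all genes kept. VCL, vinculin of the adhesion plaque, went from 348 to 206 CPM in siCTGF cells and from 383 to 252 CPM in siControl cells (adjusted p = 0.000293, additive fit). The caveolins CAV1 and CAV2 had log2 fold changes of -1.20 and -1.52. NEDD9, a docking protein of the plaque, rose from 0.702 to 3.22 CPM, and ROCK1, a kinase of actomyosin contraction, by 0.78 on the log2 scale.

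Matrix receptors and ligands fell in 22 of 60 cases (36.7%) and rose in 10 (16.7%), with a median of -0.22. Over all genes kept 24.2% fell and 28.4% rose. The integrins ITGA6, ITGB4 and ITGB3 had log2 fold changes of -1.18, -1.26 and -1.25, and THBS1, a matricellular thrombospondin, went from 319 to 148 CPM. SPP1 (osteopontin) and LAMA1, a laminin chain, rose from low levels, 0.906 to 2.93 CPM and 3.03 to 8.13 CPM. Cell adhesion molecules fell in 25 of 74 cases (33.8%) and rose in 13 (17.6%). Genes of leukocyte transendothelial migration fell in 29 of 79 (36.7%) and rose in 10 (12.7%). VCAN, the proteoglycan versican, was at -2.21 and ICAM1, the integrin ligand on endothelium, at 1.28.

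In siCTGF cells 12 of 26 chains fell and 4 rose, with a median of -0.33, and in siControl cells 18 fell and 2 rose, with a median of -0.78. COL13A1, a transmembrane collagen, went from 118 to 38.2 CPM in siCTGF cells and from 152 to 36.2 CPM in siControl cells. COL7A1, the anchoring fibril collagen, went from 52.0 to 93.0 CPM in siCTGF cells and from 80.9 to 63.4 CPM in siControl cells. COL4A4, a basement membrane chain, was at 3.70 and 1.69 CPM in the siCTGF pair, a log2 fold change of -1.11 (-1.71 to -0.57). Among matrix proteases and inhibitors 11 of 24 rose and 8 fell. MMP1, the interstitial collagenase, went from 30.7 to 63.4 CPM, and the genes of plasmin formation split. PLAU (urokinase) fell from 362 to 137 CPM, and PLAUR, its receptor, rose from 107 to 188 CPM.

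Growth factor genes leaned down, with 13 of 27 receptor kinases and ligands that fell and 3 that rose. The EGFR ligands AREG and EREG had log2 fold changes of -1.50 and -1.24, and GAS6, the ligand of AXL, of -1.46. ERK output genes rose in 12 of 28 cases and fell in 5, with a median of 0.25 that was -0.04 on the log2(TPM + 1) scale. EGR1, an immediate early factor, and the phosphatase DUSP1 were at 1.29 and 0.64, and PHLDA1, a pleckstrin homology protein, at -0.70. In the TGF-beta list 6 of 31 rose (19.4%) and 10 fell (32.3%), beside 28.4% and 24.2% of all genes kept. The inhibitors of differentiation split there, with ID2 at 1.49 and ID1 at -1.59, and the BMP antagonist NOG (noggin) was at -2.19. Factors of the epithelial to mesenchymal transition rose in 4 of 8 cases and fell in 2, with ZEB1 and ZEB2 at 0.59 and 0.83. Of 22 epithelial markers 11 fell and 1 rose, and of 8 mesenchymal markers 3 fell and none rose. KRT19, an epithelial keratin, was at -1.29 and S100A4, a calcium-binding protein of motile cells, at -1.24.

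Inflammatory genes rose in 13 of 36 cases (36.1%) and fell in 6 (16.7%), beside 28.4% and 24.2% of all genes kept. Their median was -0.01. BIRC3, an NF-kappaB target that blocks cell death, went from 81.0 to 16.4 CPM, and CSF3 (G-CSF) was at -1.57. PTGS2 (COX-2) rose from 1.44 to 4.78 CPM. Interferon-stimulated genes rose in 16 of 41 cases (39.0%) and fell in 7 (17.1%), with a median of 0.21 that was -0.07 on the log2(TPM + 1) scale. Examples were IFIT2, an RNA-binding effector, going from 123 to 469 CPM and OAS3, an oligoadenylate synthetase, at -1.37. The interferon element searched as GAAA and GAAA with any 2 bases between on both strands stood in 20 of 32 windows of that list (62.5%) and in 2.92% of windows of genes kept. Members that rose and members that did not were not compared for this element. Glycolytic enzymes fell in 13 of 24 cases and rose in 4. Of the hypoxia genes 9 of 21 rose (42.9%) and 4 fell (19.0%), with a median of 0.14. SLC2A3, a glucose transporter, and ADM (adrenomedullin), both hypoxia genes, had log2 fold changes of 1.84 and 1.53, and PFKL, the liver phosphofructokinase, of -1.20. Of the AhR and xenobiotic genes 5 of 17 rose (29.4%) and 4 fell (23.5%), near the shares of all genes kept, with a median of -0.17. CYP1B1 and CYP1A1 were at 1.48 and 1.35, from 4.94 and 2.85 CPM in siCTGF. The members that fell included AHRR, the AhR repressor, at -1.05, ALDH1A3 at -1.53 and CYP24A1, which inactivates vitamin D, at -3.11.

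All 78 cytosolic ribosomal protein genes had log2 fold changes above 0, and 15 rose past the threshold (median 0.28). These were 19.2% of the list, a smaller share than the 28.4% of all genes kept. RPS16, a protein of the small subunit, was highest at 1.02. Splicing factors of the SR and hnRNP families rose in 13 of 42 cases (31.0%), near the share of all genes kept. None of them fell, beside 24.2% of all genes kept. The kinases CLK1 and CLK4 of that list went from 45.8 to 130 CPM and from 9.61 to 29.5 CPM. The median of the ribosomal proteins was 0.13 with scaling to the total count and 0.02 on the log2(TPM + 1) scale. Over all genes kept, these scalings moved the median by -0.15 and -0.18, and the share of rises among the genes past a threshold was 41.9% and 33.9% there and 54.0% with TMM.

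Small nucleolar RNAs, 2 classes taken by symbol after the data were seen, rose in 58 of 68 H/ACA genes (median 1.03) and in 92 of 107 C/D box genes (median 0.97). In siControl cells 50 and 70 rose, with medians of 0.69 and 0.60. SNORD3A (U3), which guides rRNA cleavage, was the most abundant at 3667 CPM in siCTGF and 6172 CPM in siCTGF+kahweol. Its near-identical copies can share its reads, and most of the other snoRNAs lay under 1 CPM in siCTGF. The C/D box median was -0.01 once the trends with GC content and transcript length were removed. These short RNAs were among the genes on which the length trend was fitted. Their rise and that trend therefore cannot be told apart. The small noncoding RNAs together took 2.73% of the counts in siCTGF and 3.85% in siCTGF+kahweol, and the part of this share, and of the share of mitochondrial rRNA, in the snoRNA values was not tested.

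Among long noncoding RNAs, MIR210HG, the host of a hypoxia microRNA, fell from 5.93 to 0.496 CPM. NEAT1, the scaffold RNA of paraspeckles (gene ID 283131, on chromosome 11 of GRCh37, 65190269 to 65213011), measured 220 CPM in siCTGF and 561 CPM in siCTGF+kahweol and at 289 and 283 CPM in the siControl pair. Its log2 fold change was 1.35 (1.303 to 1.393) in siCTGF cells and -0.03 (-0.08 to 0.02) in siControl cells. MALAT1, its neighbor and a nuclear RNA of splicing speckles, rose in both, at 1.40 and 0.80. MIR22HG and KCNQ1OT1 were at 2.49 and 1.71, and in siControl cells at 1.91 and 1.05. The last 4 genes were named after their values were seen or for their difference between the pairs.

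The mitochondrial 16S rRNA RNR2 went from 24165 to 52663 CPM in siCTGF cells and from 31264 to 36051 CPM in siControl cells. The 13 mitochondrially encoded mRNAs showed a median change of 0.03 (log2) in siCTGF cells, with 2 that rose and 1 that fell, and of -0.66 in siControl cells, with none that rose and 10 that fell. The RNR2 reads were thus higher in siCTGF+kahweol than in siCTGF without a like change in the median of the mRNAs. The RNA was depleted of rRNA before sequencing. The rRNA level of the cells and the rRNA left by the depletion therefore cannot be told apart. The mitochondrial transcripts come from 1 polycistronic genome in which reads of neighbors can overlap.

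The siCTGF and siControl pairs share no library, so their fold changes can be set against each other. Over the 16599 genes, Pearson's r of the log2 fold changes was 0.652 and Spearman's rank correlation 0.760, which is across genes that are not independent replicates. At a mean count of at least 1000, over 7885 genes, they were 0.898 and 0.923. Of the genes that rose in siCTGF cells 73.0% also rose in siControl cells, and of those that fell 75.4% also fell, beside 28.1% and 26.3% of all genes kept. As shares of the siControl lists, the same overlaps were 73.7% and 69.4%. Among the 3440 genes that rose in both, the median log2 fold change was 0.83 in siCTGF cells and 0.80 in siControl cells, and the rise was larger in siCTGF cells for 1788 of them. Among the 3028 that fell in both, the medians were -1.01 and -1.10.

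**Figure D5:**
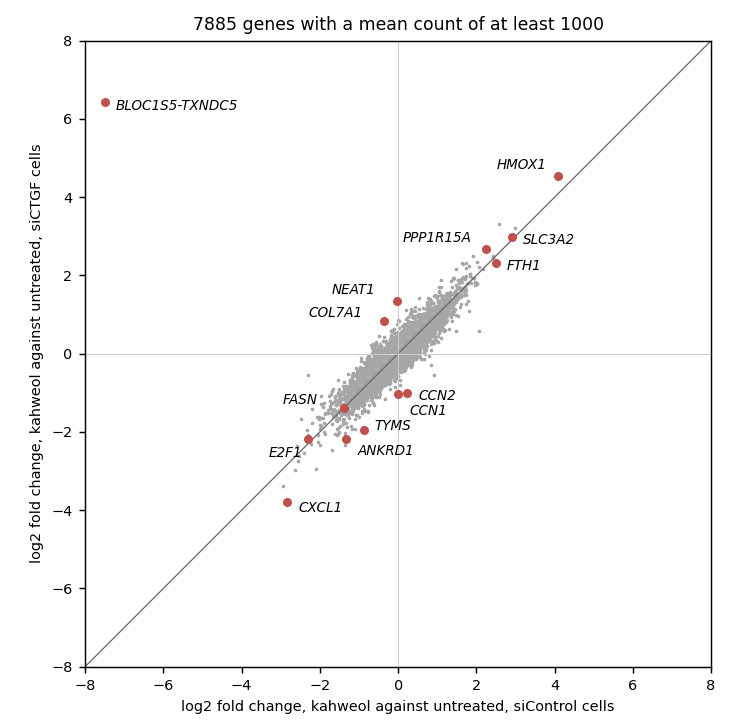
Log2 fold change, kahweol against untreated, in siCTGF cells (vertical axis) and in siControl cells (horizontal axis) for the 7885 genes whose counts averaged 1000 or more, each dot a gene and the line the place of equal change. HMOX1 lies near the line at 4.54 and 4.08, CCN2 under it, NEAT1 above it at 1.35 and -0.03, and the read-through gene BLOC1S5-TXNDC5 far from it at 6.43 and -7.50.

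To compare the responses gene by gene, 7366 genes were ranked that had a mean count of at least 1000, were no read-through transcript and overlapped no other gene kept on the same strand, a rule chosen after the data were seen. For 96.4% of them the 2 log2 fold changes differed by less than 0.5, and the standard deviation of the difference was 0.22. The difference was -1 or lower in 3 genes, CCN2 (-1.23), TYMS (-1.08) and CCN1 (-1.03). It was 1 or higher in 2, NEAT1 (1.38) and COL7A1 (1.19). Without kahweol, TYMS was at 46.6 CPM in siCTGF and 29.6 CPM in siControl, and CCN1 at 119 and 70.8 CPM. Likewise NEAT1 was at 220 and 289 CPM, and COL7A1 at 52.0 and 80.9 CPM. With kahweol NEAT1 was at 561 CPM in siCTGF cells and 283 CPM in siControl cells. A departure of 1 library, untreated or with kahweol, and a changed response to kahweol cannot be told apart. CCN2, the target of the siRNA, was the lowest of the ranking. The extent of its knockdown in each siCTGF culture and its response to kahweol cannot be told apart. The side of CCN2 also held H2AC12, CXCL1 and the YAP/TAZ target ANKRD1 at -0.97, -0.96 and -0.86. On the other side stood PKD1, the polycystin receptor, at 0.94, RNR2 at 0.92, COL5A1, a fibrillar collagen chain, at 0.92, COL17A1, a hemidesmosome collagen, at 0.90 and OASL, an interferon-stimulated gene, at 0.90. COL17A1 fell in both pairs, by less in siCTGF cells. The share of mitochondrial rRNA was also highest in siCTGF+kahweol. Across the 15277 genes with a value, the rank correlation of the log2 fold change with GC content was -0.15 in siCTGF cells and -0.27 in siControl cells. GC content was 64.8% for COL7A1, 67.0% for PKD1 and 60.3% for COL5A1, beside 44.1% for NEAT1, 51.5% for CCN2, 49.8% for TYMS and 50.3% for CCN1. The part of the rRNA share and of GC content in these differences was not tested. With 1 library per condition no test of the difference between the pairs exists.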

How the data were processed

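Total RNA of MDA-MB-231 cells was depleted of rRNA and sequenced as stranded paired-end libraries, 1 per condition. Per the labels, the authors' tools included FastQC 0.11.7, Trimmomatic 0.38, HISAT2 2.1.0, Bowtie2 2.3.4.1 and StringTie 2.1.3b on GRCh37.p13. The deposited estimated counts per gene are whole numbers without normalization, and the authors also deposited TPM and FPKM from the StringTie run and its coverage signal, of which TPM entered one alternative and the others were only checked between tables. Gene filters and the strand setting are not given in the sources used here.

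Samples were grouped by their titles. TMM scaling used edgeR 4.0.16 under R 4.3.3. Of 35993 genes, the 16599 whose counts averaged 10 or more were kept, and log2 CPM used a prior count of 2. The thresholds, folds over 1.3 and under 0.7, are those of the study. Counting intervals (95%) were computed with scipy 1.17.1. The additive fit (glmQLFit, glmQLFTest) was tested on simulated data. Library totals ran from 44781516 to 59129784, and intervals widened towards genes at a few CPM. Gene lists (44, from textbook knowledge) and members were chosen with earlier results of these data known, and so were the comparisons.

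Genes named were the 12 highest and 12 lowest protein-coding genes and the 5 highest and 5 lowest others (mean count of at least 100), up to 5 per list and direction past the thresholds (mean count of at least 50) by the interval bound nearest 0, the 8 largest differences between the pairs in each direction, the CCN family, VCL, COL4A4, COL11A1 and MMP1, of which COL11A1 was not kept. Promoter windows came from RefSeq (GRCh38.p14), and GC content and transcript length from GENCODE 29 (GRCh38), for 92.0% of the genes kept. No coordinates were converted. Alternatives tried were DESeq2 1.42.0 size factors, total count scaling, log2(TPM + 1), prior counts of 0.5 and 10, other filters, removal of GC and length trends (lowess, statsmodels 0.14.6), DESeq2, limma-voom (limma 3.58.1) and a fit without the siRNA.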

Additional observations from a re-analysis of the deposited data

Results flagged for a closer look

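Of the 382 genes past the fold thresholds in opposite directions in the 2 pairs, 21 are read-through genes, whose reads are shared with their parent genes, so that their counts are uncertain. The following are those that the naming rule picked, and with 1 library per condition these differences were not tested. The hyphenated names among them are read-through genes. BLOC1S5-TXNDC5 had a log2 fold change with kahweol of 6.43 in siCTGF cells and -7.50 in siControl cells, from counts of 96 and 6919 and of 9358 and 34. TSNAX-DISC1 stood at 6.54 and -3.44, UBE2F-SCLY at 4.35 and -3.70, ZNF559-ZNF177 at 2.65 and -1.17, and ABHD14A-ACY1 at -4.17 and 4.77. TNFSF12-TNFSF13 was at -3.87 and 6.62, the second value against a count of 0 and set by the prior count. JMJD7-PLA2G4B had a count of 0 in siCTGF and of 141 in siCTGF+kahweol, at least 57.3-fold higher against 3 counts in the library. Its fitted values were 6.36 and -0.82, the first set by the prior count. PIGY, which shares a transcript with a neighboring gene, was at -2.13 and 2.82, and LOC114841035 at 1.05 and -1.73. The mitochondrial genes ND4L and ND6 were at 0.49 and -0.54 and at 0.52 and -0.55.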

How the results depend on the processing

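The 4713 genes that rose and the 4017 that fell became 7563 and 6154 without a filter on low counts, which adds genes, and the log2(TPM + 1) scale left 2263 that rose. The 1551 genes 2-fold higher became 388 on that scale, 3485 without the filter and 772 at a mean count of at least 100, and the 1792 that were 2-fold lower became 3036 and 995 under those filters. The 382 genes past the thresholds in opposite directions in the 2 pairs became 58 on the log2(TPM + 1) scale, 44 at a mean count of at least 100 and 2 at 1000, alternatives chosen after seeing the data. Calls of the additive fit ranged from 3306 to 3960 higher and from 3254 to 4064 lower over DESeq2, limma-voom and the other alternatives. Of 324 named genes, the log2 fold changes of 257 moved by more than their counting interval on the log2(TPM + 1) scale, of 157 with total count scaling and of 5 with a prior count of 10, and none of them changed sign under these. Of the list medians 18 moved on the first scale and 7 on the second past the 95% order-statistic interval of their median. Medians close to 0 crossed it under another scaling (aminoacyl-tRNA synthetases, TGF-beta genes, matrix proteases, mitochondrially encoded genes) or with the GC and length trends removed (TGF-beta and inflammatory genes). The other medians that changed sign were those of interferon-stimulated genes (-0.0664) and ERK output genes (-0.0364) on the log2(TPM + 1) scale, leukocyte markers (-0.0159) with total count scaling and C/D box snoRNAs (-0.0074, over the 84 genes with values) with the GC and length trends removed, and the cause was not tested. No paired analysis was possible because each condition had 1 library, which leaves no replicate numbers to pair and none to leave out. The additive fit already compares within each siRNA, and without the siRNA term it called 3366 higher and 3490 lower. Depth limits genes at a few CPM, and nothing here covers variation between cultures.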
